A study of Rattus norvegicus with 12 samples.

Results

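The genes described here encode the calcium handling machinery of the cardiac sarcoplasmic reticulum: Ryr2, Atp2a2, Pln, Sln, Casq2, Dhrs7c, Hrc, Jph2 and Trdn, with the plasma membrane exchanger Slc8a1. They were chosen by symbol alone. All 10 were found once each in the deposited table of 32883 rat genes, and all 10 were among the 14063 genes that passed the filter on low counts and were tested. Their RNA was measured in primary cardiomyocytes from the ventricles of newborn rats, cultured for 2 days after an adenovirus had brought in its cargo. The cargo was LacZ, a bacterial gene used as the control, or human KAT6A, a histone acetyltransferase. KAT6A was the wild-type protein (WT), the mutant K815R, whose lysine was replaced by arginine and which resists acetylation at that site, or the mutant K815Q, whose glutamine mimics the acetylated lysine. Each of the 4 groups had 3 libraries, all groups received virus, and the cells kept their own Kat6a. The labels do not say whether the libraries of a group came from separate cultures or litters, so p-values measure only the spread between these libraries, which may be technical.

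In a heart muscle cell a small entry of calcium through the plasma membrane opens ryanodine receptors in the sarcoplasmic reticulum, and the calcium released there drives contraction. Relaxation follows as the pump SERCA2a, encoded by Atp2a2, returns calcium to the store, while the sodium-calcium exchanger NCX1, encoded by Slc8a1, carries the rest out of the cell. The small membrane proteins phospholamban and sarcolipin hold the pump back, calsequestrin and the histidine-rich calcium binding protein buffer calcium inside the store, and junctophilin and triadin hold the release unit together.

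Gene counts ranged from 19102048 to 25451686 per library. A count of 3 corresponded to between 0.118 and 0.156 CPM (gene counts scaled to a common total), and levels below that have no order. The labels were checked on the rat gene Kat6a. Its counts hold the cells' own RNA and those reads of the human cargo that aligned to rat sequence. How many did so is not known, so the level does not measure delivery. Kat6a averaged 48.1 ± 4.75 CPM over the LacZ libraries, 93.0 ± 12.3 with WT, 108 ± 11.7 with K815R and 46.3 ± 3.35 under the K815Q label (SD, n = 3). It was therefore not raised where the label calls for K815Q, and these are named throughout as the libraries labelled K815Q, whose directions rest on the label. The same libraries differed in Prkaa2, a catalytic subunit of the kinase AMPK, whose mean was 60.9 ± 10.2 CPM with LacZ, 519 ± 102 with WT, 87.2 ± 8.70 with K815R and 1168 ± 55.4 under the K815Q label (SD, n = 3). Cardiomyocyte genes were abundant everywhere. The 8 markers that were found and tested beside Ryr2 summed to between 43230 and 46320 CPM with LacZ, 45700 and 46520 with WT, 47830 and 48860 with K815R, and 44390 and 46530 under the K815Q label, so the K815R sums lay above the rest. Against LacZ, the K815R means of Myh7 (5066 and 4061 CPM) and Actc1 (12090 and 10480) were higher, while those of Myh6 (12390 and 12320) and Myl3 (5574 and 5588) were close. Singly, 0 of the 8 were called in K815R against LacZ, beside 2.47% of all genes. Against LacZ, 1 was called higher and 0 lower in WT, and 0 were called under the K815Q label, beside 5.34% and 7.85% of all genes. Other cells were present, since 10 fibroblast markers summed to 11860 to 12730 CPM with LacZ, 11010 to 12070 with WT, 11110 to 11560 with K815R and 11960 to 12860 under the K815Q label. The K815R sums thus lay below those of LacZ and of the K815Q label. Col1a1 and Col3a1 carried most of each sum (8256 and 3088 CPM in LacZ, 7480 and 2943 with K815R). Singly, 1 of the 10 was called higher and 0 lower in K815R against LacZ, beside 2.47% of all genes called, with a median log2 fold change of 0.00. The sums therefore do not speak for all their markers. Macrophage markers (10) reached 66.9 to 87.7 CPM with LacZ, 87.4 to 92.7 with WT, 89.9 to 96.5 with K815R and 94.4 to 99.4 under the K815Q label. The LacZ sums overlapped those of WT and lay below those of K815R and of the K815Q label. Single markers did not all follow the sum. Adgre1 had its highest mean in LacZ (3.14 CPM, against 2.15 under the K815Q label), and C1qc was higher there than with WT (3.33 and 2.89). In such bulk samples fewer cardiomyocytes and less RNA per cardiomyocyte cannot be told apart, and the part of cell makeup in the results was not tested.

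Of the 10 genes, 8 were called in no comparison between the 4 groups, with log2 fold changes from -0.50 to 0.51, or from -0.31 to 0.30 without the barely detected Sln. The differences that passed the test lay in Pln, which was higher than in LacZ, and in Dhrs7c, which was lower with K815R than with WT and than under the K815Q label. Each group was compared with each other group in 1 edgeR quasi-likelihood fit, with Benjamini-Hochberg adjustment over all 14063 genes and a call at an adjusted p under 0.05. Of the 60 results (10 genes in 6 comparisons), 5 were called. In WT against LacZ, 1 of 10 genes was called (Pln, higher), beside 5.34% of all genes tested. In the libraries labelled K815Q against LacZ, 2 of 10 were called (Pln and Dhrs7c, both higher), beside 7.85% of all genes. In K815R against LacZ, 0 of 10 were called, beside 2.47% of all genes; 1 gene, Pln, had an unadjusted p under 0.05 in edgeR (13.8% of all genes), and DESeq2 called 1, also Pln. K815R was lower than WT in 1 of 10 genes (Dhrs7c), beside 2.2% of all genes called in that comparison, and lower than the libraries labelled K815Q in 1 of 10, again Dhrs7c, beside 0.363% of all genes. The libraries labelled K815Q differed from WT in 0 of 10 genes, beside 1.07% of all genes; 3 genes had an unadjusted p under 0.05 (Ryr2, Slc8a1 and Jph2, all with lower estimates, beside 14.4% of all genes), and DESeq2 called 0. Tested for any group difference at once, 2 of 10 genes were called, Pln and Dhrs7c, beside 8.13% of all genes.

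Complete separation of the libraries gave a similar picture. In WT, 3 of 10 genes lay above all LacZ libraries (Pln, Dhrs7c and Casq2; 12.3% of all genes did) and 0 below (12.3%). In K815R, 1 lay above (Pln; 9.11%) and 0 below (9.6%). Under the K815Q label, 3 lay above (Pln, Dhrs7c and Hrc; 13.9%) and 1 below (Slc8a1; 14.5%). K815R lay above WT in 0 genes (9.49%) and below it in 1 (Dhrs7c; 9.48%). The libraries labelled K815Q lay above WT in 0 genes (9%) and below it in 2 (Ryr2 and Slc8a1; 10.3%), and K815R lay above them in 0 (8.28%) and below them in 1 (Dhrs7c; 7.69%). The median log2 fold change of the 10 genes was 0.12 for WT, -0.01 for K815R and 0.08 for the libraries labelled K815Q against LacZ, where the medians of all genes lay at 0.01, 0.00 and 0.01. The 3 comparisons with LacZ share the same control libraries, so they are not independent of each other.

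**Figure D1:**
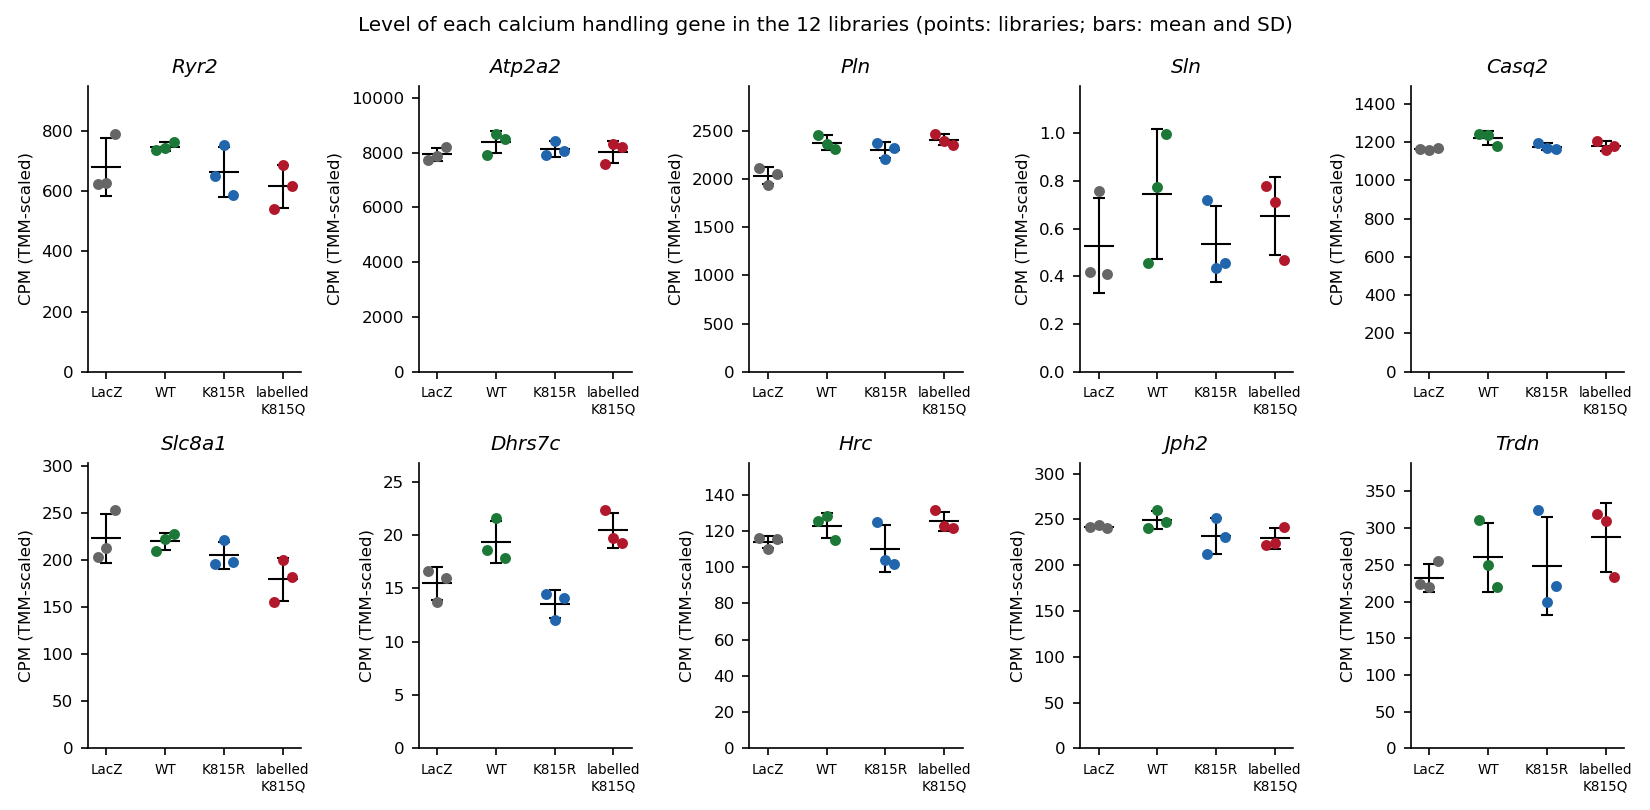
Level of each of the 10 genes in CPM (y axis, from 0) in the 4 groups (x axis); points are the 12 libraries, bars the mean and SD of 3. Pln is lowest in LacZ, Dhrs7c is lower in LacZ and K815R than in the other groups, and most other panels overlap between groups.

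**Figure D2:**
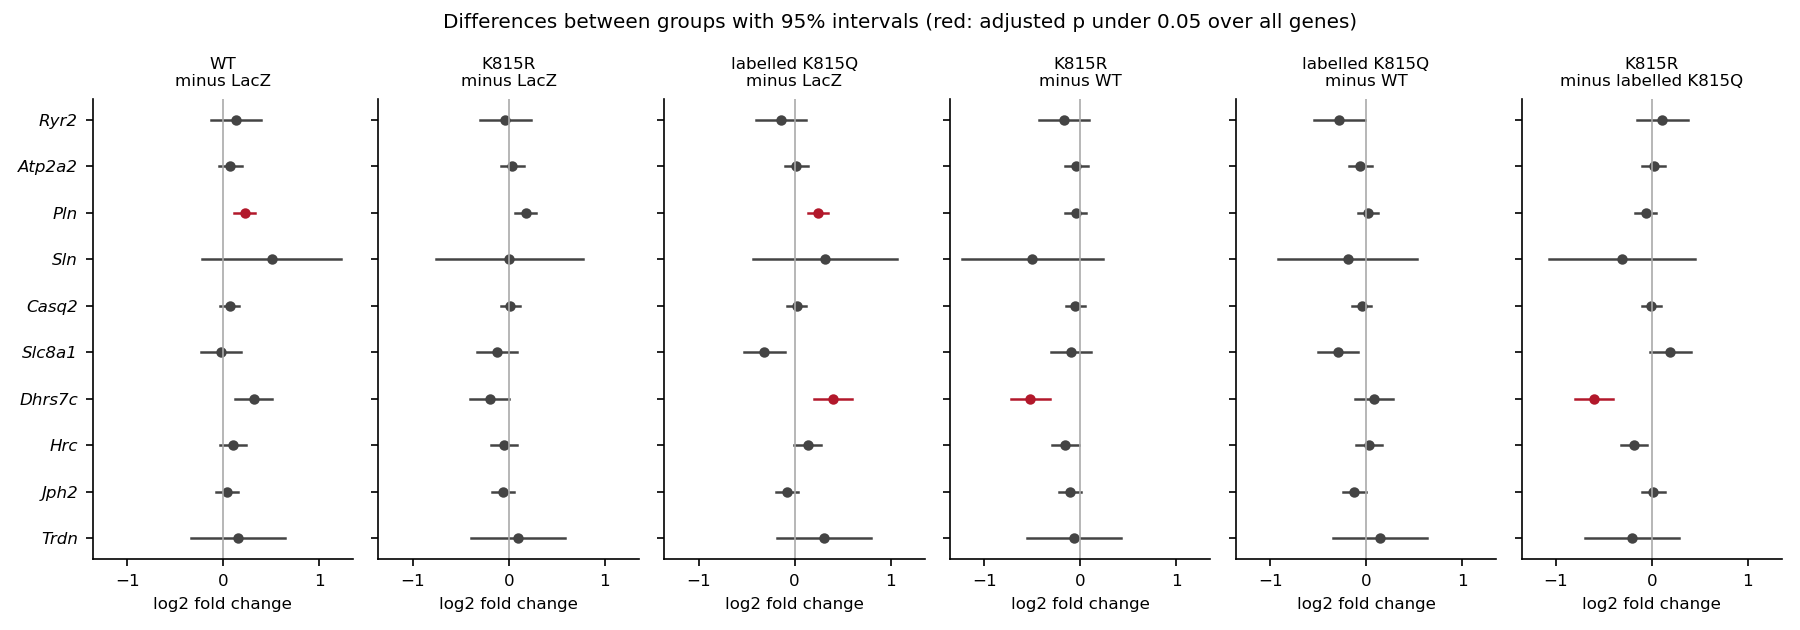
Log2 fold changes (x axis) of the 10 genes (y axis) in the 6 comparisons, as points with 95% intervals; red marks the 5 results with an adjusted p under 0.05 over all genes. The intervals of Atp2a2, Casq2 and Jph2 are narrow and those of Sln and Trdn are wide.

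The calcium pump itself did not pass the test in any comparison. Atp2a2 (ENSRNOG00000001285) stood at 7717, 7887 and 8196 CPM in the LacZ libraries, 7918, 8691 and 8503 with WT, 7898, 8439 and 8048 with K815R, and 7575, 8320 and 8196 under the K815Q label. These ranges overlapped in all 6 comparisons. Against LacZ the fold was 1.06 for WT (95% interval 0.971 to 1.15), 1.02 for K815R (0.942 to 1.11) and 1.01 under the K815Q label (0.931 to 1.10), with adjusted p of 0.521, 0.858 and 0.889 by edgeR.

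The pump's inhibitor, phospholamban, was higher than in LacZ. Pln (ENSRNOG00000000413) stood at 2111, 1942 and 2050 CPM in the LacZ libraries, 2459, 2361 and 2309 with WT, 2375, 2210 and 2318 with K815R, and 2470, 2397 and 2357 under the K815Q label. Every library of the 3 other groups lay above every LacZ library, and these 3 groups overlapped one another. Against LacZ it rose 1.17-fold in WT (log2 fold change 0.22, SE 0.0524, adjusted p 0.0119 by edgeR) and 1.18-fold in the libraries labelled K815Q (0.24, SE 0.0524, adjusted p 0.00634 by edgeR). In K815R the fold was 1.13, which was not called (0.18, SE 0.0524, adjusted p 0.0769 by edgeR). The K815R and WT levels differed by a log2 fold change of -0.05 (95% interval -0.16 to 0.06), which does not show that the forms act alike.

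The Pln calls depended on which libraries were kept. Leaving out 1 library moved the estimates to 0.19 to 0.25 with WT and 0.21 to 0.27 under the K815Q label. The call in WT was kept in 4 of 6 fits that left out a library and was lost without LacZ replicate 2 (log2 fold change 0.19, adjusted p 0.0968 by edgeR) and without WT replicate 1 (0.20, adjusted p 0.0595). The call in the libraries labelled K815Q was kept in 4 of 6 as well, and was lost without LacZ replicate 2 (0.21, adjusted p 0.0536 by edgeR) and without K815Q replicate 1 (0.22, adjusted p 0.0522). Calls over all genes fell in these fits too. In WT they went from 751 to 378 without LacZ replicate 2 and to 541 without WT replicate 1. Under the K815Q label they went from 1104 to 418 without LacZ replicate 2 and to 360 without K815Q replicate 1. Pln also moved with a property of the libraries. The share of reads in no annotated feature was 11.7% to 12.2% in LacZ, 12.2% to 12.9% with WT, 11.8% to 12.4% with K815R and 12.1% to 12.9% under the K815Q label, and with group means removed Pln rose with it (Pearson r 0.68, Spearman rho 0.73, 12 libraries). With this share as a covariate, a fit chosen after seeing the data, the log2 fold change of Pln was 0.17 with WT, 0.17 with K815R and 0.18 under the K815Q label, and none was called (adjusted p 0.0998, 0.0610 and 0.129 by edgeR). The mean share itself differed between groups (11.9%, 12.5%, 12.0% and 12.6%, in the order above), so this fit also takes out part of any group difference. Calls over all genes against LacZ numbered 545, 389 and 308 in it, where the main fit gave 751, 348 and 1104.

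Set against the pump in the same library, Pln gave a measure that does not depend on scaling. There were 274, 246 and 250 Pln reads per 1000 Atp2a2 reads in the LacZ libraries, 311, 272 and 272 with WT, 301, 262 and 288 with K815R, and 326, 288 and 288 under the K815Q label. WT and K815R overlapped LacZ, whose highest library was replicate 1, and the libraries labelled K815Q lay above all 3 LacZ libraries. The mean log2 ratio exceeded that of LacZ by 0.15 with WT, 0.14 with K815R and 0.23 under the K815Q label, where the SD among 3 libraries was 0.11, 0.10 and 0.10. These are ratios of reads, not of molecules, because the genes differ in length, and no test was made on them.

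**Figure D3:**
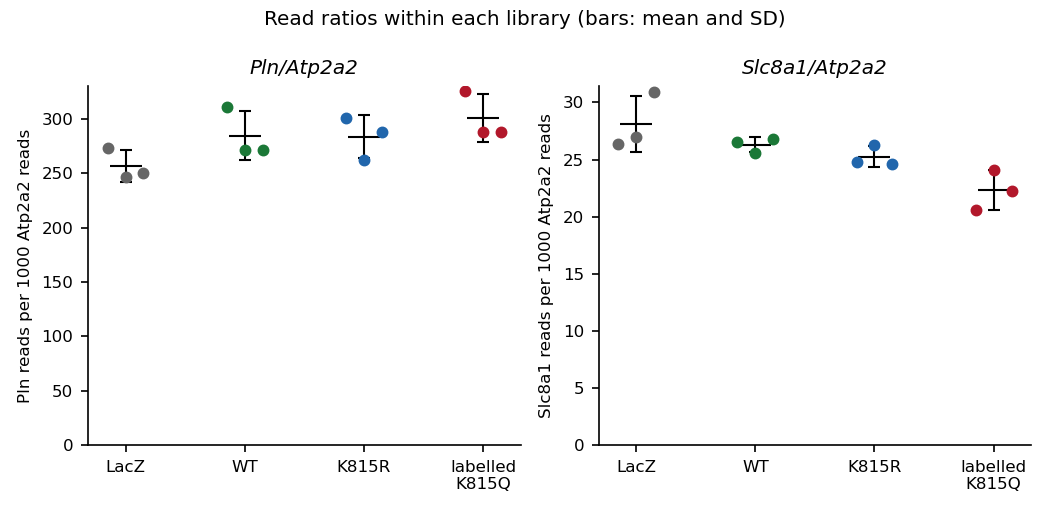
Reads of Pln (left) and of Slc8a1 (right) per 1000 reads of Atp2a2 in the same library (y axes, from 0) in the 4 groups; points are libraries, bars the mean and SD of 3. The libraries labelled K815Q lie above all LacZ libraries for Pln, from 288 upwards, and below all of them for Slc8a1.

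The sequences just upstream of Pln and Atp2a2 are shown because the inhibitor was called and its target pump was not. RefSeq promoter entries of build GRCr8 were found for 8 of the 10 genes. The 250 bases before the annotated start of Pln lie at chr20:33172244-33172493 (+ strand) and those of Atp2a2 at chr12:39733269-39733518 (+ strand), in coordinates of GRCr8, not of the build of the counts. Both are given 5′ to 3′ in the direction of the gene, and capitals mark matches to CANNTG, the E-box recognised by basic helix-loop-helix factors.
Pln: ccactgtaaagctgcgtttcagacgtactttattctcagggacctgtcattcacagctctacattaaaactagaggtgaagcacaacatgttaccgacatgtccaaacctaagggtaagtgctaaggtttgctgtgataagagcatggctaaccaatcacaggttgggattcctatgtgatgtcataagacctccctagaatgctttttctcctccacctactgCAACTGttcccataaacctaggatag
Atp2a2: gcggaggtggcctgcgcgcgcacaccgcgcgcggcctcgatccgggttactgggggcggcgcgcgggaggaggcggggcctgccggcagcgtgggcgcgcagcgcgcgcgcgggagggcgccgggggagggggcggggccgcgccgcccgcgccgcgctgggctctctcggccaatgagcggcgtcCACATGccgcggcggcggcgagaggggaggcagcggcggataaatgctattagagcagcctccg
The Pln stretch held 44% G or C and 3 CpG pairs, and that of Atp2a2 80% and 45, where the median of 33465 rat promoters was 51.2% and 5. A CANNTG match lay at -26 in Pln and at -64 in Atp2a2, counted from the annotated start. This motif was present in 5 of the 8 promoters and in 65.5% of all 33465 stretches of the same length. A search for TATAAA, the core of the TATA box, on both strands gave 0 of 8 matches, against 12.9% of all stretches. These searches say only which letters the windows hold.

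Sln, the sarcolipin gene, which in the heart is chiefly atrial, was barely detected. It had between 9 and 21 reads per library, or 0.41 to 1.00 CPM over all 12 libraries. All groups overlapped. At this depth its log2 fold change in WT against LacZ was 0.51 with a 95% interval from -0.22 to 1.23 (adjusted p 0.474 by edgeR), whose upper end is a 2.35-fold rise. Of the 7 atrial markers, Sln alone had a mean under 1 CPM.

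Dhrs7c (ENSRNOG00000026548), which encodes a short-chain dehydrogenase of the sarcoplasmic reticulum membrane, was lower with K815R than with WT and than under the K815Q label. It stood at 16.7, 13.7 and 16.0 CPM in the LacZ libraries, 18.6, 21.6 and 17.8 with WT, 14.5, 12.0 and 14.1 with K815R, and 22.4, 19.8 and 19.2 under the K815Q label. All WT libraries and all libraries labelled K815Q lay above all LacZ and all K815R libraries, while LacZ and K815R overlapped. Prkaa2, named above, was also higher with WT and under the K815Q label than with LacZ and K815R, and its part in the Dhrs7c result was not tested. K815R was lower than WT (fold 0.697, log2 fold change -0.52, SE 0.0968, adjusted p 0.0058 by edgeR). It was also lower than the libraries labelled K815Q (fold 0.659, -0.60, SE 0.0966, adjusted p 0.00402 by edgeR). Those libraries exceeded LacZ 1.32-fold (0.40, SE 0.0945, adjusted p 0.0117 by edgeR). WT stood 1.25-fold above LacZ without a call (0.32, SE 0.0947, adjusted p 0.0501 by edgeR), and K815R against LacZ gave -0.20 (95% interval -0.40 to 0.00, adjusted p 0.363). WT and the libraries labelled K815Q were not told apart (0.08 higher in the latter, 95% interval -0.11 to 0.28).

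The Dhrs7c difference between K815R and WT was called in 6 of 6 fits that left out a library, with log2 fold changes from -0.58 to -0.43, and in all 9 other settings tried, among them the fit without the libraries labelled K815Q (-0.52) and that with the share of reads in no feature as a covariate (-0.44, adjusted p 0.0367 by edgeR). The other Dhrs7c calls were less firm. Against the libraries labelled K815Q, K815R was not called without K815Q replicate 1 (-0.53, adjusted p 0.067 by edgeR) or with that covariate (-0.50, adjusted p 0.137). The libraries labelled K815Q against LacZ were not called without LacZ replicate 2 (0.32, adjusted p 0.0818 by edgeR), without K815Q replicate 1 (0.33, adjusted p 0.103) or with the covariate (0.29, adjusted p 0.204). With the covariate, calls over all genes in these 2 comparisons fell as well, from 51 to 9 and from 1104 to 308.

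None of the 5 genes of the release unit and its calcium store passed the test in any comparison. Ryr2 (ENSRNOG00000017060), the calcium release channel, stood at 624, 626 and 791 CPM in the LacZ libraries, 735, 743 and 764 with WT, 651, 752 and 588 with K815R, and 542, 686 and 618 under the K815Q label. Only WT and the libraries labelled K815Q did not overlap. The latter stood at 0.824 of WT (95% interval 0.686 to 0.988, adjusted p 0.316 by edgeR), and a fit of only these 6 libraries called this difference (log2 fold change -0.28, adjusted p 0.0417). Casq2 (ENSRNOG00000016243), the calcium buffer calsequestrin, varied least, at 1162 ± 5.67 CPM with LacZ, 1219 ± 37.1 with WT, 1175 ± 18.2 with K815R and 1181 ± 26.3 under the K815Q label (SD, n = 3). The 3 WT libraries, from 1176 to 1243 CPM, lay above the LacZ range of 1156 to 1167, by 1.05-fold without a call (95% interval 0.981 to 1.12, adjusted p 0.467 by edgeR).

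Jph2 (ENSRNOG00000008170), which ties the plasma membrane to the store, averaged 242 ± 1.43 CPM with LacZ, 249 ± 9.95 with WT, 232 ± 19.4 with K815R and 229 ± 11.0 under the K815Q label (SD, n = 3). All its groups overlapped. Hrc (ENSRNOG00000020719), the second luminal calcium binder, averaged 114 ± 3.36 CPM with LacZ, 123 ± 6.95 with WT, 110 ± 12.9 with K815R and 125 ± 5.42 under the K815Q label (SD, n = 3). The lowest mean was that of K815R, whose replicate 1 reached 125 CPM while the others stood at 104 and 102. Without replicate 1 Hrc was lower in K815R than in WT (log2 fold change -0.26, adjusted p 0.0344 by edgeR) and than under the K815Q label (-0.28, adjusted p 0.0447), and with all libraries the values were -0.16 and -0.18 (adjusted p 0.280 and 0.259). For each difference this was the 1 of 6 fits leaving out a library that called it. Over the 6, values reached -0.10 and -0.13 (adjusted p up to 0.66 and 0.71 by edgeR). In the other settings 0 fits called them, with values reaching -0.07 and -0.08.

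Trdn (ENSRNOG00000012609), which anchors calsequestrin to the release channel, differed more between libraries of one group than between groups. It stood at 224, 219 and 255 CPM in the LacZ libraries, 311, 250 and 220 with WT, 325, 200 and 222 with K815R, and 319, 310 and 234 under the K815Q label. A single library of WT, a single library of K815R and a pair labelled K815Q stood above 300 CPM, and the others lay between 200 and 255. The largest estimate was 0.30 in the libraries labelled K815Q against LacZ, with a 95% interval from -0.18 to 0.79 (adjusted p 0.431 by edgeR).

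Slc8a1 (ENSRNOG00000008479), the exchanger that extrudes calcium, had its lowest values under the K815Q label. Its level was 204, 213 and 253 CPM in the LacZ libraries, 210, 222 and 228 with WT, 196, 222 and 198 with K815R, and 156, 201 and 182 under the K815Q label. The last lay below all LacZ and all WT libraries and overlapped K815R. Against LacZ the fold was 0.805 (95% interval 0.695 to 0.931) and against WT 0.816 (0.705 to 0.945), neither of which was called (adjusted p 0.0691 and 0.189 by edgeR). The first was called by DESeq2 (log2 fold change -0.32, adjusted p 0.0071), without LacZ replicate 1 (-0.38, adjusted p 0.0364 by edgeR) and without K815Q replicate 2 (-0.40, adjusted p 0.0217 by edgeR). These were 2 of 6 fits that left out a library. Over the 6, estimates ran from -0.40 to -0.21, with adjusted p up to 0.191 by edgeR. With the share of reads in no feature as a covariate it was -0.30, not called (adjusted p 0.279 by edgeR). Relative to the pump, there were 20.6, 24.1 and 22.3 Slc8a1 reads per 1000 Atp2a2 reads in the libraries labelled K815Q, against 26.4, 27.0 and 30.9 in LacZ. WT, with 25.6 to 26.8, and K815R, with 24.6 to 26.3, lay above the former.

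The 10 genes varied within groups to very different degrees. The SD of log2 CPM within groups was 0.26 for Trdn, 0.16 for Ryr2 and 0.14 for Slc8a1, above 99.8%, 99.4% and 96.1% of genes whose level was within 2-fold of theirs. Casq2 lay at the other end, with an SD of 0.03, above 3.31% of such genes. Atp2a2 and Pln, with 0.06 and 0.05, were below the median of genes at their level.

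With the group means removed, most of the genes fell into a pair of sets across the 12 libraries. Ryr2 and Slc8a1 varied together most closely (Pearson r 0.93, Spearman rho 0.90), and Atp2a2 varied with both (0.72 with Ryr2 and 0.87 with Slc8a1, Pearson). Hrc and Trdn (Pearson r 0.81), Casq2 and Hrc (0.77), Pln and Dhrs7c (0.75) and Pln and Trdn (0.73) made up the other set. Jph2 and Trdn were opposed (Pearson r -0.85, Spearman rho -0.81), as were Atp2a2 and Pln (-0.67, Pearson). Between the sets the correlations were negative but often weak, for Ryr2 from -0.06 with Trdn to -0.35 with Dhrs7c (Pearson). Of the 45 pairs, 7 had an r above 0.7 and 1 an r below -0.7. These are descriptions of 12 libraries that share their scaling and differ in depth.

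**Figure D4:**
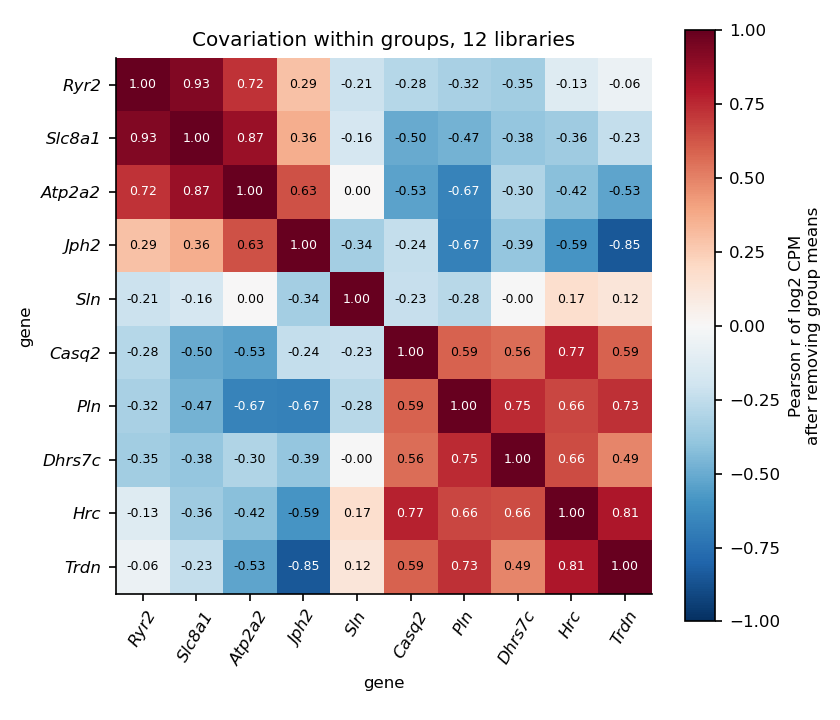
Pearson correlation of log2 CPM between each pair of the 10 genes (both axes) across 12 libraries after removal of group means; red is positive, blue negative. Ryr2, Slc8a1, Atp2a2 and Jph2 form a positive block at the upper left, and Casq2, Pln, Dhrs7c, Hrc and Trdn another at the lower right.

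Trdn moved closely with the share of reads outside annotated features. With group means removed, Trdn followed that share with a Pearson r of 0.92 (Spearman rho 0.91, 12 libraries), above 99.5% of the 10261 genes of at least 5 CPM, whose 5th to 95th percentiles ran from -0.69 to 0.76 with a median of -0.06. Pln (0.68), Hrc (0.65), Casq2 (0.51) and Dhrs7c (0.43) lay inside that range, Jph2 (-0.70) just beyond its lower end, and Ryr2 and Slc8a1 had 0.13 and -0.06 (Pearson). The 4 libraries above 300 CPM for Trdn had 12.9% (WT), 12.4% (K815R), 12.9% and 12.9% (labelled K815Q) of their reads in no feature, and the other 8 had 11.7% to 12.4%. With the share as a covariate the estimates of Trdn against LacZ changed sign, to -0.24 with WT and -0.18 under the K815Q label (adjusted p 0.130 and 0.299 by edgeR), so no direction is given for Trdn.

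**Figure D5:**
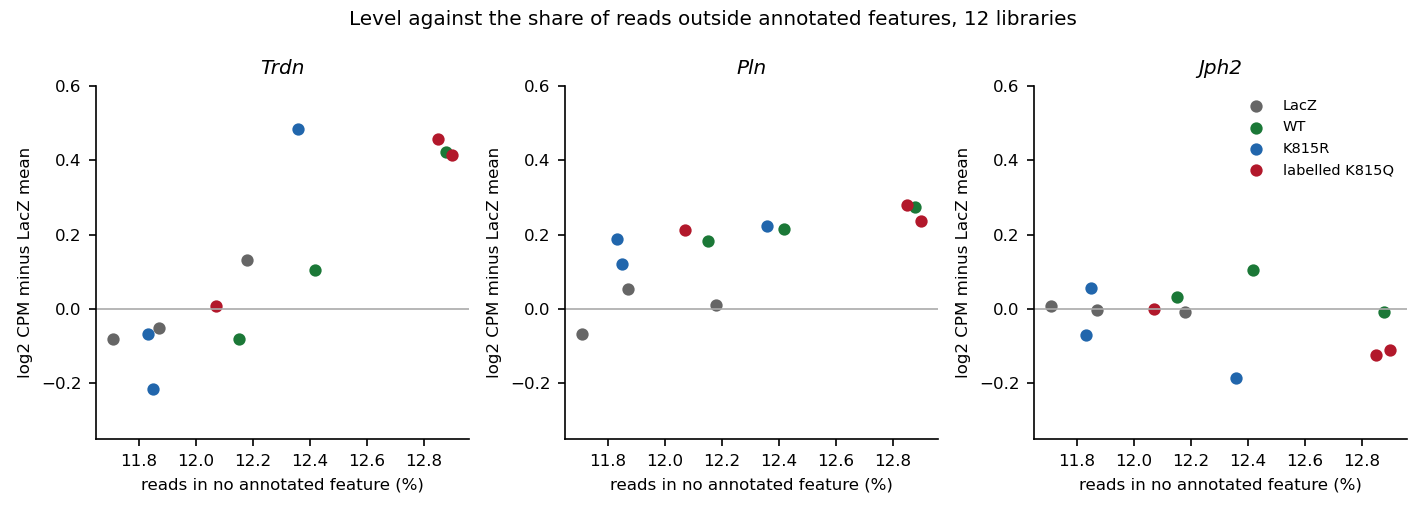
Log2 CPM of Trdn, Pln and Jph2 minus the LacZ mean (y axes) against the percentage of reads in no annotated feature (x axes); each point is 1 of the 12 libraries, coloured by group. Trdn is high in the libraries at the right, Pln is lowest in LacZ, and Jph2 tends downwards.

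The wider calcium network was taken from 5 lists with 103 genes, of which 97 were found in the table and 93 tested. In WT against LacZ, 2 of the 93 were called higher and 3 lower, or 5.38%. In K815R 1 was called higher and 1 lower, or 2.15%. In the libraries labelled K815Q 1 was higher and 6 lower, or 7.53%. These shares lie near those of all genes (5.34%, 2.47% and 7.85%). Among the groups other than LacZ, Rrad was lower under the K815Q label than with WT, and it was the 1 gene of the lists called there (1.08%, beside 1.07% of all genes). In K815R against WT and against the libraries labelled K815Q, 0 of 93 were called by edgeR, beside 2.2% and 0.363% of all genes. Of the 93, 13 and 6 had an unadjusted p under 0.05 in edgeR, for which no share of all genes is given here. DESeq2 called 1 and 0. The median log2 fold change of the 93 genes was 0.00, -0.03 and -0.06 against LacZ in WT, K815R and the libraries labelled K815Q.

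Of 23 tested genes of ion flux across the plasma membrane, 2 were called with WT, 2 with K815R and 4 under the K815Q label against LacZ (8.7%, 8.7% and 17.4%, beside 5.34%, 2.47% and 7.85% of all genes). Cacna1g, a T-type calcium channel, rose from 166 ± 7.46 CPM with LacZ to 207 ± 9.29 with WT and 216 ± 20.9 with K815R (SD, n = 3; log2 fold changes 0.31 and 0.38, adjusted p 0.00213 and 0.000553 by edgeR), and both calls were kept in 6 of 6 fits that left out a library. Under the K815Q label Cacna1g stood at 186 ± 4.48 CPM (SD, n = 3), also above LacZ but not called (0.16, adjusted p 0.0872 by edgeR). In the libraries labelled K815Q, 2 auxiliary subunits of the L-type calcium channel were lower than in LacZ, Cacna2d1 by -0.36 and Cacnb2 by -0.25 on the log2 scale (adjusted p 0.00631 and 0.0223 by edgeR), with 4 and 2 of 6 such fits keeping the call. Neither was called against LacZ with WT (-0.12 and -0.07) or with K815R (-0.14 and -0.13). Rrad, a GTPase that restrains that channel, was lower under the K815Q label than with LacZ (-0.34, adjusted p 0.012 by edgeR) and than with WT (-0.43, adjusted p 0.00963), and 4 and 5 of 6 such fits kept these calls. Against LacZ it was not called with WT (0.09) or with K815R (-0.20).

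Among the regulators by phosphorylation, 2, 0 and 2 of 27 tested genes were called against LacZ (7.41%, 0% and 7.41%, beside 5.34%, 2.47% and 7.85% of all genes). Prkar2b, a regulatory subunit of protein kinase A, and Pde3b, a phosphodiesterase, were lower in WT (log2 fold changes -0.25 and -0.45, adjusted p 0.00944 and 0.0164 by edgeR), with 5 and 2 of 6 fits that left out a library keeping the call. Their estimates were also below LacZ, without a call, in the other groups. These were -0.09 and -0.18 with K815R (adjusted p 0.529 and 0.486 by edgeR) and -0.115 and -0.17 under the K815Q label (0.207 and 0.341). In the libraries labelled K815Q, Prkacb, a catalytic subunit of protein kinase A, was lower (-0.43, adjusted p 0.0122 by edgeR) and Ppp1r1a, an inhibitor of protein phosphatase 1, was higher (0.42, adjusted p 0.0226), with 3 and 1 of 6 such fits keeping the call. The estimates had the same signs, without a call, with WT (-0.07 and 0.34, adjusted p 0.758 and 0.0795 by edgeR) and with K815R (-0.12 and 0.28, adjusted p 0.660 and 0.227). Of the other release and junction genes, 1 of 25 was called, Selenon, lower in the libraries labelled K815Q (-0.20, adjusted p 0.0326 by edgeR), a call that 1 of 6 such fits kept. Of 9 other uptake and luminal genes, 1 was called, the pump Atp2a3, higher in WT at 1.11 ± 0.109 CPM against 0.479 ± 0.0726 in LacZ (SD, n = 3; adjusted p 0.0243 by edgeR), and 1 of 6 fits that left out a library kept it. Of 9 genes of mitochondrial calcium uptake, 0 were called by edgeR in any of the 6 comparisons, beside 0.363% to 7.85% of all genes. In each comparison 1 had an unadjusted p under 0.05 in edgeR. The share of all genes for this was 13.8% in K815R against LacZ and 14.4% in the libraries labelled K815Q against WT. Over all 5 lists, calls against LacZ without LacZ replicate 2 numbered 2, 1 and 1 in WT, K815R and the libraries labelled K815Q. Without LacZ replicate 3 they numbered 3, 1 and 1, and no call was left under the K815Q label without its replicate 1 (0 of 93). Calls over all genes, 751, 348 and 1104 in the main fit, fell in these fits too. They were 378, 185 and 418 without LacZ replicate 2 and 548, 229 and 507 without LacZ replicate 3. Under the K815Q label they were 360 without its replicate 1. With the share of reads in no feature as a covariate the lists had 6, 3 and 1 calls, and all genes had 545, 389 and 308.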

How the data were processed

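RNA was sequenced from 12 libraries in 4 groups of 3, grouped by sample title. The authors deposited 1 table of raw read counts per Ensembl rat gene. Per the submitters' processing notes, Trimmomatic 0.39, HISAT2 2.2.1, HTSeq 0.6.1, edgeR and build Rnor_6.0 were used; roles, parameters and the strand setting are not given in the sources used here, so overlapping and antisense genes are uncertain. Lines of the table that name no gene (11.7% to 12.9% of reads in no feature, 25.6% to 26.9% not uniquely aligned) stayed out of library sizes and tests.

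Gene counts were scaled by TMM, filtered by filterByExpr (minimum count 10, minimum total 15) and fitted by the robust quasi-likelihood test of edgeR 4.0.16 (R 4.3.3), with group means over all 12 libraries and no block. P-values were adjusted by Benjamini-Hochberg over all 14063 genes. Levels are TMM-scaled CPM, with a prior count of 2 for log2 values. Alternatives were other scalings and filters, DESeq2 1.42.0, a replicate block, fits of only the groups compared, and leaving out each library. The share of reads in no feature as a covariate and a fit without the libraries labelled K815Q were added after seeing the data. The procedure was tested on simulated data. The 10 genes were named whatever their result; of the wider lists, genes called in at least 1 comparison, except 1 that is not reported here; and the 5 genes most correlated with the members' mean z-score. The genes, lists and rules were chosen with earlier results of these data known. No protein sequences were used here. Libraries of a group differed by more than sampling noise (chi-square per degree of freedom 4.54 to 8.74).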

Additional observations from a re-analysis of the deposited data

How the results depend on the processing

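Under RLE and upper-quartile scaling, a filter of 10 counts in every library and a fit of only the groups compared, all 5 calls of Pln and Dhrs7c were kept. Counts of the 10 genes called moved as follows. In WT against LacZ there were 2 with upper-quartile scaling, without a filter and with the replicate block, and 0 with the covariate; in K815R against LacZ there was 1 without a filter, with DESeq2 and with the block; in the libraries labelled K815Q against LacZ there were 0 with the covariate; in the latter against WT there was 1 with the block (Slc8a1) and 1 in a fit of only these libraries (Ryr2); in K815R against the libraries labelled K815Q there were 0 with the covariate, and for any difference 1. Leaving out a library gave 0 to 2, 0 to 1, 0 to 3, 1 to 2, 0 to 0 and 0 to 2 calls in 6 comparisons, taken in the order WT, K815R and the K815Q label against LacZ, then K815R and the K815Q label against WT, then K815R against the K815Q label, and 1 to 3 for any difference. For the wider lists these ranges were 2 to 5, 1 to 2, 0 to 8, 0 to 1, 0 to 3 and 0 to 0. Without a filter the lists had 4, 12, 2, 6 and 1 calls in the second to the sixth comparison. All genes then had 600, 1528, 553, 423 and 307 calls of 22491 tested, where the main fit gave 348, 1104, 309, 151 and 51 of 14063. In fits of only the groups compared the lists had 8, 2 and 3 calls (in the first, the fourth and the fifth). With the block they had 2 in the fifth. With DESeq2 and without the libraries labelled K815Q they had 1 in the fourth, and with the covariate 1 in the third and 1 in the fourth. The cause was not tested. Same-numbered libraries of different groups correlated between -0.13 and 0.12, differently numbered ones between -0.13 and 0.145, and 5 of 12 correlated best with their own number. With the replicate block, calls over all genes rose in each comparison, from 751 to 800 in WT and from 1104 to 1280 under the K815Q label against LacZ. Whether the numbers pair the libraries is therefore not settled. With the replicate block Pln in K815R (0.18), Dhrs7c in WT (0.32) and Slc8a1 in the libraries labelled K815Q (-0.32 against LacZ, -0.30 against WT) were called as well.

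Signs changed only for results without a call. With the covariate these were, as log2 fold changes, Atp2a2 (-0.023), Casq2 (0.019), Jph2 (-0.074) and Trdn (0.19) in K815R against the libraries labelled K815Q, Casq2 (-0.0068), Jph2 (0.024) and Trdn (-0.18) in the latter against LacZ, and Trdn in WT against LacZ (-0.24) and in K815R against WT (0.25). Leaving out a library gave ranges across 0 in K815R against LacZ for Ryr2 (-0.13 to 0.088), Sln (-0.24 to 0.34), Hrc (-0.15 to 0.0043) and Trdn (-0.14 to 0.23); in the libraries labelled K815Q against LacZ for Atp2a2 (-0.0088 to 0.058) and against WT for Pln (-0.0011 to 0.045), Sln (-0.44 to 0.088) and Hrc (-0.017 to 0.061); in WT against LacZ for Slc8a1 (-0.083 to 0.078); in K815R against the libraries labelled K815Q for Atp2a2 (-0.023 to 0.044), Casq2 (-0.022 to 0.010) and Jph2 (-0.048 to 0.073); and in K815R against WT for Trdn (-0.30 to 0.082). The depth limits Sln, at 9 to 21 reads a library.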

Other observations

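The 10 genes did not share 1 profile. With each gene's log2 CPM set to z-scores and averaged over the 9 of at least 1 CPM, single genes followed the mean with Pearson r from 0.25 (Slc8a1) to 0.74 (Casq2) over 12 libraries. The genes outside the set closest to this mean, of 9846 named genes of at least 5 CPM, were Slc7a3 (Pearson r 0.93, Spearman rho 0.86), Tec (0.91 and 0.91), Col4a3 (0.91 and 0.92), Ttc33 (0.91 and 0.85) and Ncapg2 (0.90 and 0.86). Slc7a3, a transporter of basic amino acids, stood at 12.2 ± 1.23 CPM with LacZ, 15.9 ± 0.991 with WT, 12.5 ± 0.543 with K815R and 12.9 ± 0.185 under the K815Q label (SD, n = 3), and was highest in WT as was the mean itself.

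The called genes were also taken singly. The genes of highest Pearson r with each, out of the same 9846, are named here after their values were seen. Dhrs7c was followed most closely by Ccn5, a secreted matricellular protein (Pearson r 0.98, Spearman rho 0.97), Fhl2, a LIM domain protein of the sarcomere (0.93 and 0.90), Cmklr1, the chemerin receptor (0.93 and 0.99), and Myzap, a protein of the intercalated disc (0.93 and 0.94). Pln was followed by Mmp12, a macrophage metalloproteinase (0.95 and 0.83), Taf1d (0.95 and 0.94), Gnl3 (0.95 and 0.93) and Rbm3, an RNA-binding protein induced by cold (0.94 and 0.90). All are correlations over 12 libraries that hold the 4 groups, so shared group differences enter them.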
